A study of Arabidopsis thaliana with 12 samples.

Results

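The plant circadian clock is built from genes that repress each other at successive times of day. The 10 genes described here are the pseudo-response regulators PRR9 (AT2G46790), PRR7 (AT5G02810), PRR5 (AT5G24470), PRR3 (AT5G60100) and TOC1 (AT5G61380), the evening complex genes ELF3 (AT2G25930), ELF4 (AT2G40080) and LUX (AT3G46640), the LUX homologue BOA (AT5G59570), and GI (AT1G22770). They were taken by gene identifier from the 33557 genes of the authors' expression tables, and all 10 were tested in each of 4 comparisons. In Arabidopsis, PRR9, PRR7, PRR5 and TOC1 are transcriptional repressors expressed in that order from morning to evening, and their targets include the morning genes CCA1 and LHY. ELF3 is the scaffold of the evening complex, ELF4 is a small protein that binds ELF3, and LUX is the GARP-family protein that brings the complex to DNA. The complex is known for holding back growth-promoting PIF genes and PRR9 at night. PRR3 is known for protecting TOC1 from the F-box protein ZTL, and GI is a large protein that works with ZTL and with the flowering pathway. SFPS is a nuclear splicing factor that binds the red light receptor phytochrome B.

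The groups were sfps-2 seedlings, a knockout of SFPS in the Col-0 background, and wild-type Col-0 seedlings. Whole seedlings were grown in darkness for 4 days and then received 3 h of red light at 7 µmol per square metre per second or a further 3 h of darkness, with 3 libraries in each of the 4 groups and 12 in all. The mutant is 1 allele, and the labels do not say whether the 3 libraries of a group came from separately grown seedlings, so p-values here measure the spread between libraries, which may be technical. RNA was total RNA with ribosomal RNA removed, in strand-specific libraries. Expression was deposited as 1 FPKM value per gene and group (fragments scaled by transcript length and library size), with no value per library, while splicing was deposited as junction reads in each library.

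SFPS itself was listed at 1.83 FPKM in sfps-2 against 8.04 in Col-0 in darkness, and at 1.93 FPKM in sfps-2 against 7.90 in Col-0 in red light. Junction reads in the 581 splicing bins listed for every library ranged from 331686 to 486614 per library, a 1.47-fold range, and sfps-2 red replicate 3 had the fewest. Markers of other tissues and stages also differed between genotypes. The 5 seed storage genes tested were all called higher in dark-grown sfps-2, with a summed level of 215 FPKM in sfps-2 against 19.9 FPKM in Col-0. In red light 3 of these 5 were called higher, with 238 FPKM in sfps-2 against 46.6 FPKM in Col-0. All 4 root epidermis and hair markers were called higher in sfps-2 in red light, at a summed 10.6 FPKM in sfps-2 against 3.39 FPKM in Col-0, and 0 of 4 were called in darkness. The same 4 were called higher in red light against darkness in sfps-2, and 0 of 4 were in Col-0. With light, the calls of seed storage genes went opposite ways, 4 of 5 called lower in red light in sfps-2 and 4 of 5 called higher in Col-0. Their summed level was higher in red light in both genotypes. It was 244 FPKM against 219 FPKM in darkness in sfps-2, and 46.0 FPKM against 19.5 FPKM in Col-0. CRA1, not called for light in sfps-2, was there at 220 FPKM in red light against 164 FPKM in darkness. PORA, the protochlorophyllide oxidoreductase gene that marks dark-grown seedlings, stood at 277 FPKM in sfps-2 against 176 FPKM in Col-0 in darkness, and the 2 photosynthetic genes were called higher there as well. The part of these differences in the results on clock genes was not tested, and in whole seedlings a change in the number of cells expressing a gene cannot be told apart from a change in RNA per cell.

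Red light raised some of the 10 genes and lowered others. The following values are group FPKM from the authors' deposited table of each comparison, log2 changes were computed from them, and the standard errors (SE) were derived from the authors' test statistic. A gene counts as called where it passed q = 0.05 in the authors' table with a difference of 1.5-fold or more. In Col-0, 6 of the 10 genes were called, 5 higher and 1 lower in red light, against 20.8% of the 20635 genes tested, of which 14.9% were higher and 5.85% lower. In sfps-2, 6 were again called, 4 higher and 2 lower, against 21.4% of 20970 genes, of which 12.4% were higher and 8.97% lower. These 2 comparisons share no library.

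**Figure D1:**
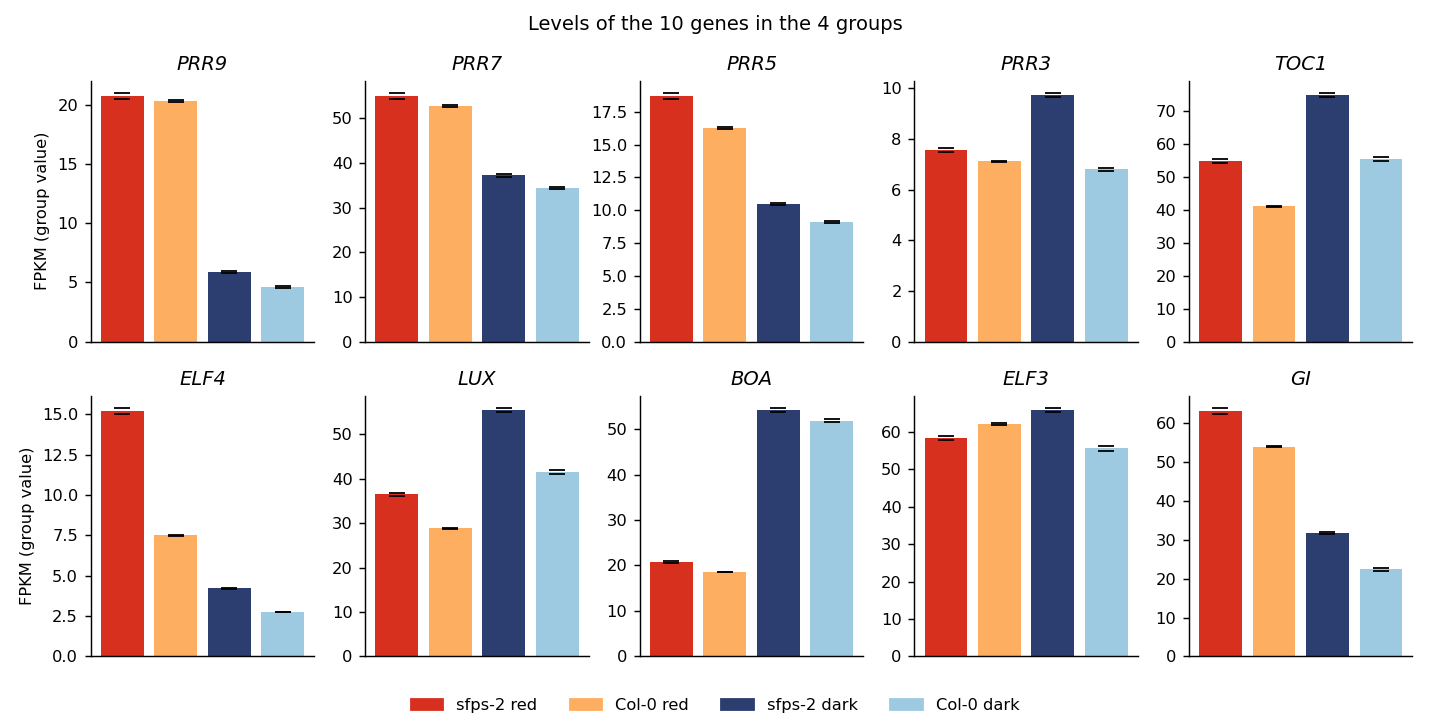
Group FPKM of the 10 genes. Each bar is the mean of the values that the authors' 2 tables give for that group, the black ticks are those 2 values (not replicates), and each panel has its own axis starting at 0; PRR9 and ELF4 were highest in the red light groups, whereas BOA, LUX and TOC1 were highest in the dark groups.

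Among the pseudo-response regulators, PRR9, PRR7 and PRR5 were higher in red light, whereas the evening gene TOC1 was lower. PRR9, the morning member of the family, was at 21.0 FPKM in red light and 5.92 FPKM in darkness in sfps-2, and at 20.2 FPKM in red light and 4.55 FPKM in darkness in Col-0. The log2 changes were 1.82 ± 0.19 (SE) in sfps-2 and 2.15 ± 0.15 (SE) in Col-0, and both were at the authors' lowest p of 5e-05. For PRR7, which follows PRR9 in the day, the log2 changes were smaller, 0.57 ± 0.16 (SE) in sfps-2 and 0.62 ± 0.12 (SE) in Col-0. PRR7 was called in Col-0, at 52.5 FPKM in red light against 34.1 FPKM in darkness. In sfps-2 it passed q alone, with 55.6 FPKM in red light against 37.5 FPKM in darkness, a 1.48-fold difference just under the limit. PRR5 was called in both genotypes with nearly the same value, 0.84 ± 0.17 (SE) in sfps-2 and 0.84 ± 0.14 (SE) in Col-0. TOC1 passed q alone in both genotypes and stayed under the fold limit. It was at 55.3 FPKM in red light and 75.3 FPKM in darkness in sfps-2 (log2 change -0.44, q = 0.0284), and at 40.9 FPKM in red light and 54.8 FPKM in darkness in Col-0 (log2 change -0.42, q = 0.00283). PRR3 was called in neither genotype, with log2 changes of -0.36 ± 0.18 (SE) in sfps-2 and 0.07 ± 0.15 (SE) in Col-0.

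The partners of the evening complex did not move together. ELF4 was called higher in red light in both genotypes, at 15.4 FPKM in red light against 4.25 FPKM in darkness in sfps-2 and at 7.48 FPKM in red light against 2.74 FPKM in darkness in Col-0. Its log2 changes were 1.85 ± 0.28 (SE) in sfps-2 and 1.45 ± 0.26 (SE) in Col-0. LUX, which encodes the DNA-binding partner, was lower in red light. In sfps-2 it was called, at 36.9 FPKM in red light against 55.8 FPKM in darkness, a 1.51-fold difference just past the limit. In Col-0 it passed q alone (q = 8.16e-04), at 28.7 FPKM in red light against 41.1 FPKM in darkness. BOA, the LUX homologue, fell further, to 21.0 FPKM in red light against 54.6 FPKM in darkness in sfps-2 and to 18.5 FPKM in red light against 51.5 FPKM in darkness in Col-0, log2 changes of -1.38 ± 0.17 (SE) in sfps-2 and -1.48 ± 0.13 (SE) in Col-0. ELF3, the scaffold, was called in neither genotype and varied least of the 10 genes, over a log2 range of 0.24 between its lowest group at 55.7 FPKM and its highest at 65.8 FPKM. GI rose in both genotypes, to 63.9 FPKM in red light against 32.0 FPKM in darkness in sfps-2 and to 53.8 FPKM in red light against 22.1 FPKM in darkness in Col-0.

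**Figure D2:**
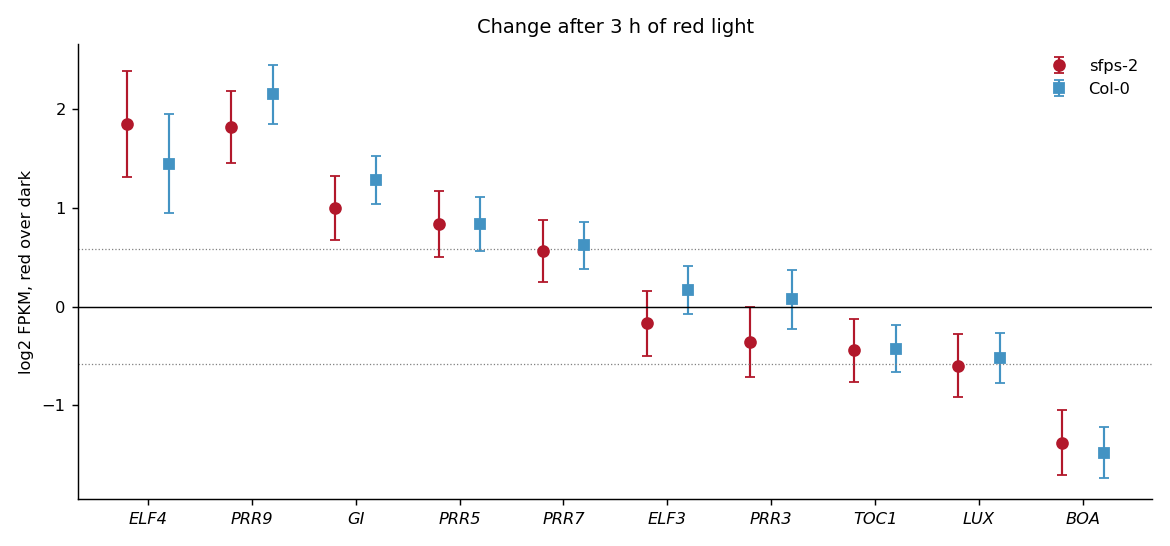
Log2 change of FPKM, red over dark, in sfps-2 (circles) and Col-0 (squares), with 95% intervals from the SE; dotted lines mark the 1.5-fold limit. ELF4, PRR9, GI and PRR5 lie above the upper limit and BOA below the lower one in both genotypes, and the intervals of the 2 genotypes overlap for every gene.

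None of the 10 light responses was shown to differ between genotypes. The difference of the light responses, sfps-2 minus Col-0, was tested with a normal test over 20420 genes and Benjamini-Hochberg adjustment. It passed for 1213 genes (5.94%) and for 0 of the 10 clock genes, and 0 of the 10 had an unadjusted p under 0.05, against 12.5% of all genes. PRR3 came nearest, with a difference of -0.43 and a 95% interval of -0.90 to 0.03 (adjusted p = 0.485). ELF4 had a difference of 0.40 with an interval of -0.33 to 1.14, the widest of the 10. The intervals of PRR5 (-0.44 to 0.43), TOC1 (-0.42 to 0.38) and BOA (-0.31 to 0.52) were narrower and lay around 0.

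TOC1, LUX and BOA, the 3 members at lower levels in red light with q under 0.05 in both genotypes, share a short promoter motif. The motif is not particular to them, since the window of PRR5, called higher in red light in both genotypes, also holds it. The sequences of TOC1, LUX and BOA are shown beside that of PRR9, the member with the largest rise in Col-0. The 300 bases before the RefSeq start of 9 of the genes (TAIR10.1, same nuclear coordinates as the TAIR10 build of the files) were searched on both strands for 3 motifs. These were the evening element AAAATATCT, the CCA1 binding site AAAAATCT and the G-box CACGTG. No matches of different motifs overlap in these windows. Capitals mark matches on either strand, and each sequence is written 5′ to 3′ on the gene's strand.
PRR9 (chr2:19232307-19232606, plus strand): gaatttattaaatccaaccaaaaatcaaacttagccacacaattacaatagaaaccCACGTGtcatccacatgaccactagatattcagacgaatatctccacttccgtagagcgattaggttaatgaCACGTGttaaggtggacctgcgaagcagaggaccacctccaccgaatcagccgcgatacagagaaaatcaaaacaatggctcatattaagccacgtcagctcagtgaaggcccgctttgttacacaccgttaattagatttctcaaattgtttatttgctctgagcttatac
TOC1 (chr5:24674663-24674962, plus strand): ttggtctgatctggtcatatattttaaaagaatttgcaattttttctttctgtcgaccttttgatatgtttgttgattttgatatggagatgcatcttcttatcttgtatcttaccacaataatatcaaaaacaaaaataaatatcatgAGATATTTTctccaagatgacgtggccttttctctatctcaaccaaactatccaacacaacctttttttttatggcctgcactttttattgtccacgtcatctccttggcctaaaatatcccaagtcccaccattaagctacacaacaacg
LUX (chr3:17182742-17183041, plus strand): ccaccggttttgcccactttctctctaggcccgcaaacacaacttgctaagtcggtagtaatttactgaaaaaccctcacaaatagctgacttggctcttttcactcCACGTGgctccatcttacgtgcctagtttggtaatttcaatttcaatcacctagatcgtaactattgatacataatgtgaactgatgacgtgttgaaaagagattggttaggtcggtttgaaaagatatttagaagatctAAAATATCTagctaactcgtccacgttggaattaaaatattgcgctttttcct
BOA (chr5:24003588-24003887, plus strand): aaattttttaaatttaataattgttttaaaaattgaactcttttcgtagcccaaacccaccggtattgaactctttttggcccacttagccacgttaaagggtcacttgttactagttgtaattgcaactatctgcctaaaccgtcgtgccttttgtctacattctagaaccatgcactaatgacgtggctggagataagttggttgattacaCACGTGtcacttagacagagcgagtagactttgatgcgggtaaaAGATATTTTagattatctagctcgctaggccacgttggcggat

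An evening element, to which CCA1 and LHY are known to bind, lay in 4 of the 9 windows, against 2.78% of the 27443 gene windows searched. TOC1 held it 151 bases before the start, LUX 53 bases and BOA 43 bases before it. PRR5 held 2 copies and also the only CCA1 binding site among these windows, a motif found in 7.94% of all windows. For PRR5 the files' own gene locus reaches 327 bases further than the RefSeq start, so its window lies within that locus and may hold transcribed bases. Of the other 8 windows, 3 held an evening element. For PRR9, PRR7, PRR3, TOC1, ELF3, LUX and GI the locus instead starts downstream of the RefSeq start. Positions and absences of motifs given here therefore hold for windows set by the RefSeq start. G-boxes, which HY5 and PIF proteins are known to bind, were found in 7.09% of all windows and in PRR9, PRR7, LUX and BOA, with 2 in PRR9. These matches are a description of the windows, chosen with the expression values known, and were not tested.

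Fewer members were called between genotypes than between light conditions. In darkness all 10 had a log2 change above 0 in sfps-2 against Col-0, with a median of 0.36, whereas 55.6% of all tested genes were above 0 with a median of 0.04. None was called, against 7.2% of 20698 genes. With q alone 3 of the 10 passed, all higher, against 10.1% of genes in either direction and 6.86% higher, and 5 of the 10 had an unadjusted p under 0.05, against 20.2% of genes. PRR3 was at 9.66 FPKM in sfps-2 and 6.86 FPKM in Col-0, a log2 change of 0.49 ± 0.16 (SE) with q = 0.0290. GI was at 31.5 FPKM in sfps-2 and 22.7 FPKM in Col-0, a log2 change of 0.48 ± 0.14 (SE) with q = 0.0125. TOC1 was at 74.2 FPKM in sfps-2 and 56.0 FPKM in Col-0, with q = 0.0461. These are genes of different roles, an accessory regulator, a chaperone-like protein and a repressor. LUX missed the q limit, at 55.0 FPKM in sfps-2 and 41.8 FPKM in Col-0 (q = 0.0517), and ELF4 had a larger log2 change of 0.59 with a wide error of 0.30 (SE) at its low level of 4.18 FPKM in sfps-2 and 2.77 FPKM in Col-0. PRR7 and BOA lay near 0, at 0.09 ± 0.14 (SE) and 0.04 ± 0.14 (SE).

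In red light ELF4 was the only member called, against 6.51% of 20867 genes, and 3.28% called higher. It was at 15.0 FPKM in sfps-2 and 7.53 FPKM in Col-0, a log2 change of 1.00 ± 0.23 (SE) with q = 0.00138. Of the others, 8 of 9 had log2 changes above 0, between 0.01 for PRR9 and 0.39 for TOC1, and ELF3 was at -0.11 ± 0.15 (SE), whereas 47.2% of all tested genes were above 0. The median of the 10 was 0.16, against -0.02 over all tested genes. TOC1 kept a log2 change close to that in darkness, 0.39 ± 0.15 (SE), with 54.2 FPKM in sfps-2 and 41.2 FPKM in Col-0, and did not pass (q = 0.0839). The red and dark comparisons share no library.

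**Figure D3:**
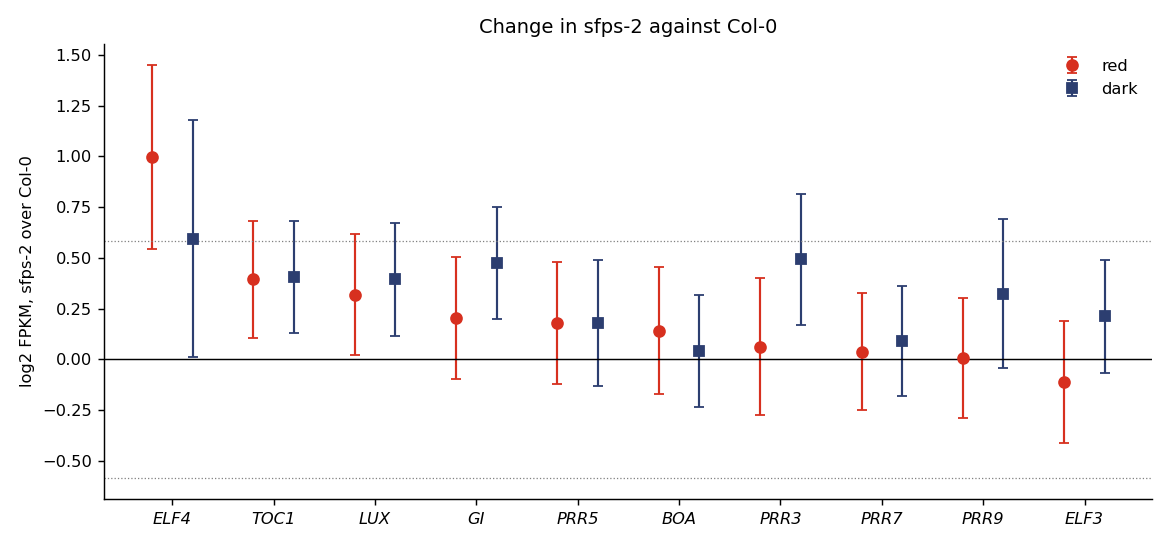
Log2 change of FPKM, sfps-2 over Col-0, in red light (circles) and in darkness (squares), with 95% intervals from the SE and dotted lines at the 1.5-fold limit. In darkness all 10 points lie above 0, and in red light ELF4 alone passed the fold limit.

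In the order of their levels, which FPKM scales by transcript length, TOC1 and ELF3 led in dark-grown sfps-2 at 74.7 and 65.8 FPKM (means of 2 tables), followed by LUX at 55.4 and BOA at 54.2 FPKM. In Col-0 in darkness ELF3, TOC1 and BOA stood within 55.7 to 51.9 FPKM, and ELF4 was lowest at 2.75 FPKM. In red light GI led in sfps-2 at 63.2 FPKM and ELF3 in Col-0 at 62.1 FPKM, and PRR3 was lowest in both, at 7.55 FPKM in sfps-2 and 7.11 FPKM in Col-0. The 2 tables that hold each group differed by 0.672% to 2.63% for these genes. Neighbours in these orders were not tested against each other.

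The morning clock genes called between genotypes were all lower in sfps-2. Of 14 morning clock genes tested, 3 were called lower in sfps-2 in darkness and 3 in red light, and 0 higher in either. List medians were -0.24 in darkness and -0.14 in red light. Over all tested genes, 7.2% were called in darkness and 6.51% in red light, in either direction. LHY, a morning repressor of TOC1 and the evening complex genes, was at 31.0 FPKM in sfps-2 against 54.8 FPKM in Col-0 in red light. LNK2 and RVE8, which act together as activators of PRR5, TOC1 and other evening genes, had log2 changes of -0.73 and -0.68 in darkness and -0.81 and -0.81 in red light. CCA1, the close homologue of LHY, was not called, with log2 changes of -0.24 in darkness and 0.01 in red light. Of 13 regulators of clock proteins, including ZTL, 0 were called between genotypes in either condition. Of 8 relatives of the members, 6 were tested in darkness and 5 in red light. Only EEC was called, at 1.17 FPKM in sfps-2 and 0.446 FPKM in Col-0 in darkness. Of the 10 clock output genes, 9 were tested, and GRP7, an RNA-binding protein under clock control, was the only one called, at 177 FPKM in sfps-2 against 109 FPKM in Col-0 in red light.

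In red light against darkness, the morning list of 14 had 7 genes called higher and 1 lower in each genotype. Over all tested genes, 12.4% were called higher and 8.97% lower in sfps-2, and 14.9% higher and 5.85% lower in Col-0. Of the regulators of clock proteins, 2 were called higher and 1 lower in sfps-2, and 0 higher and 2 lower in Col-0. JMJ30, a histone demethylase gene of the evening, was lower in both, with log2 changes of -1.02 in sfps-2 and -1.44 in Col-0. EEC also fell in both, with log2 changes of -2.85 in sfps-2 and -2.88 in Col-0. PIF4 and PIF5, known targets of the evening complex, rose by 1.47 and 1.38 in sfps-2 and by 1.42 and 1.38 in Col-0 on the log2 scale. Of the 4 light regulators of evening genes, HY5 and its homologue HYH rose in both genotypes, HY5 by 0.96 in sfps-2 and 1.43 in Col-0 and HYH by 3.11 in sfps-2 and 3.68 in Col-0. FHY3 and FAR1 were not called in any comparison.

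Over the 4 comparisons, the genes whose log2 changes lay closest to those of ELF4 were AT5G47980, with a root mean square difference of 0.07, AT1G54540 with 0.19 and ACR1 with 0.22, out of 18278 genes. Closest to PRR9 were PETE1, a plastocyanin gene, with 0.03, HBP5 with 0.07 and AT4G34090 with 0.07. The 4 comparisons share groups, so these distances rest on 4 group values.

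Introns of 3 members were spliced differently in sfps-2. The authors' deposited tables list splicing events per comparison, each a bin of a gene with its boundary and junction reads. Every listed event has an FDR of the bin under 0.05 and a share that differs by 3 points or more between the groups, and 5 introns of 3 members appear there. Retention is given here as the mean of the unspliced reads at both boundaries over that mean plus the spliced reads, in percent. In sfps-2 against Col-0, 3 of the 10 members had a listed event in darkness and 3 in red light, against 3.75% and 3.92% of the genes tested for expression. These were ELF3, TOC1 and PRR7 each time. The shares are of all genes tested for expression, with or without introns, and were not matched to the members for intron number or level. In red light against darkness, 1 member (ELF3) was listed in Col-0, against 2.92% of genes, and 0 in sfps-2, against 1.92%. PRR9, PRR5, PRR3, ELF4, LUX, BOA and GI had no listed event in any comparison, and their splicing was not analysed here. ELF4 has no annotated intron.

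All 5 introns lie within coding sequence and begin with GT and end with AG. Their splice sites are shown because they are the places where the reads were counted. They run 5′ to 3′ on the gene's strand, with the intron's first and last 2 bases in capitals.
ELF3 intron 1, 5′ splice site (chr2:11059668-11059697, plus strand): atctagtcagGTattgttttgattttgatc
ELF3 intron 1, 3′ splice site (chr2:11060010-11060049, plus strand): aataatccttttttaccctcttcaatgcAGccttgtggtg
ELF3 intron 2, 5′ splice site (chr2:11060827-11060856, plus strand): ccattgccaaGTaagttcactagaaattta
ELF3 intron 2, 3′ splice site (chr2:11061987-11062026, plus strand): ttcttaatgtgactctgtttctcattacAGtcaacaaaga
TOC1 intron 1, 5′ splice site (chr5:24675663-24675692, plus strand): tcttatcaagGTatgatttataggtttgtc
TOC1 intron 1, 3′ splice site (chr5:24675960-24675999, plus strand): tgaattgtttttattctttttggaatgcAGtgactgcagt
PRR7 intron 5, 5′ splice site (chr5:640266-640295, minus strand): tggcgctcagGTaagacgaatgtgcaatac
PRR7 intron 5, 3′ splice site (chr5:639984-640023, minus strand): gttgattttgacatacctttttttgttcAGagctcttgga
PRR7 intron 3, 5′ splice site (chr5:640869-640898, minus strand): cctgtcatcaGTgagttctttttccttggt
PRR7 intron 3, 3′ splice site (chr5:640746-640785, minus strand): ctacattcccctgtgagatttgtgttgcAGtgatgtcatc

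The splice sites were scored against the base frequencies of 130889 annotated introns. PRR7 intron 3 had a 5′ site at the 4.38th percentile, the lowest of the 5, whereas the 5′ sites of PRR7 intron 5 and TOC1 intron 1 were at the 97.3rd and 93.2nd percentiles. The 3′ site of ELF3 intron 1 was at the 12.2nd percentile, and its 5′ site was near the middle, at the 54.6th. In length, 4 of the 5 introns lie between the 86.2nd and the 99.5th percentile of annotated introns, whose median is 102 bases, and PRR7 intron 3 is at the 65.9th. ELF3 intron 2 has 1180 bases, ELF3 intron 1 has 362, TOC1 intron 1 has 317, PRR7 intron 5 has 292 and PRR7 intron 3 has 133.

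Read through in frame, every retained intron holds a stop codon. It starts at intron base 2 in ELF3 intron 2, base 10 in ELF3 intron 1, base 45 in PRR7 intron 3, base 142 in PRR7 intron 5 and base 147 in TOC1 intron 1. The coding sequence upstream makes up 7.16% of the total in TOC1, 10.5% and 48.7% in ELF3 introns 1 and 2, and 21.6% and 35.3% in PRR7 introns 3 and 5. Whether the unspliced reads come from transcripts that hold the whole intron, and so these stops, was not tested. In ELF3 intron 1 the stop lies near the 5′ boundary, where the genotypes overlapped (given further on). The stretches of ELF3 intron 1 and PRR7 intron 3, from the intron's first base to the stop in capitals, are shown as examples.
ELF3 intron 1 to its stop (chr2:11059678-11059689, plus strand): gtattgtttTGA
PRR7 intron 3 to its stop (chr5:640842-640888, minus strand): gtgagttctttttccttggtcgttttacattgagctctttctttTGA

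ELF3 intron 1 had a higher retention value, the mean over its boundaries, in sfps-2 in both conditions, and by the boundary reads given further on the groups stood apart at the 3′ boundary only. In darkness the libraries were at 8.88%, 7.66% and 7.59% in sfps-2 against 4.32%, 4.27% and 3.34% in Col-0. In red light they were at 8.83%, 10.4% and 9.85% in sfps-2 against 4.05%, 4.15% and 4.36% in Col-0. No sfps-2 library overlapped a Col-0 library in either condition. Because events were listed from these same reads, a lack of overlap, here and in the introns below, is a description only. Its share over all listed introns was not computed. The authors' deposited table gives an FDR of the bin of 6.71e-07 in darkness and 8.07e-08 in red light. In a limma fit of the log2 odds of retention over all listed events of the comparison, the log2 odds were higher in sfps-2 by 1.07 ± 0.19 (SE) in darkness (adjusted p = 0.00459) and by 1.28 ± 0.19 (SE) in red light (adjusted p = 0.00211). Because the events were listed by the authors from the same reads, this fit describes the spread between libraries and is no independent test, and 81.3% of the 972 events listed in darkness and 83% of the 992 listed in red light passed it. With 3 libraries against 3, an exact permutation test cannot give a p below 0.1.

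ELF3 intron 2, longer than 99.5% of annotated introns, was the most retained of the 3 plus-strand introns. In darkness it was at 39.7%, 36.0% and 37.4% in sfps-2 against 23.0%, 27.0% and 21.6% in Col-0, with means of 37.7% ± 1.86 in sfps-2 and 23.9% ± 2.76 in Col-0 (SD, n = 3 each). In red light it was at 25.9%, 28.8% and 35.7% in sfps-2 against 16.9%, 21.6% and 18.7% in Col-0. The groups did not overlap in either condition, and the smallest gap was in red light. The authors' deposited table gives an FDR of 2.18e-06 in darkness and 2.41e-20 in red light, and the limma adjusted p was 0.00639 in darkness and 0.0168 in red light. In red light the limma adjusted p was 0.051 without Col-0 red replicate 1. This was also the only member event listed for light, with a mean of 19.1% ± 2.36 in red light against 23.9% ± 2.76 in darkness in Col-0 (SD, n = 3 each). The libraries of these 2 groups barely separated, at 21.592% for the highest in red light and 21.647% for the lowest in darkness, and the limma adjusted p was 0.152 (64.3% of the 816 listed events passed), while the authors' deposited table gives an FDR of 0.00156.

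TOC1 intron 1 was retained more in sfps-2, at both boundaries. In darkness it was at 17.9%, 17.4% and 20.3% in sfps-2 against 11.3%, 11.2% and 11.6% in Col-0. In red light it was at 16.6%, 14.6% and 20.0% in sfps-2 against 9.64%, 7.88% and 10.3% in Col-0. The groups stood apart in both conditions, by 7.16 points in darkness and 7.81 points in red light on average. The limma adjusted p was 0.00686 in darkness and 0.00849 in red light, and the authors' deposited table gives an FDR of 5.57e-14 in darkness and 4.87e-06 in red light. For TOC1 the level of the gene was also higher in sfps-2, by q alone in darkness (above), whereas ELF3 passed no expression test between genotypes.

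In PRR7, the only member with 2 introns that changed in opposite directions, intron 3 was retained less in sfps-2. In darkness it was at 24.7%, 22.4% and 26.2% in sfps-2 against 33.3%, 40.0% and 41.6% in Col-0. In red light it was at 22.6%, 26.9% and 29.2% in sfps-2 against 33.9%, 31.5% and 34.8% in Col-0. The groups did not overlap in either condition. The decrease passed limma in darkness (adjusted p = 0.00858, authors' deposited table FDR 0.0404) and did not in red light (adjusted p = 0.0596, authors' deposited table FDR 0.0223). In darkness, spliced reads of this intron, scaled to the mean library, averaged 221 ± 32.2 in sfps-2 and 163 ± 31.2 in Col-0 (SD, n = 3 each), while the PRR7 level differed by a log2 change of 0.09. Intron 5 was listed in red light only, where it was retained more in sfps-2, at 28.7%, 30.6% and 37.7% in sfps-2 against 21.6%, 17.8% and 15.2% in Col-0. These libraries did not overlap, and the limma adjusted p was 0.00881 (authors' deposited table FDR 0.00372). The whole of PRR7 intron 3, the one member intron with lower retention in sfps-2, reads as follows, with its first and last 2 bases in capitals.
PRR7 intron 3 (chr5:640756-640888, minus strand): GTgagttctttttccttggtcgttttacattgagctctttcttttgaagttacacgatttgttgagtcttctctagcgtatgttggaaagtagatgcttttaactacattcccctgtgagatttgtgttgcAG

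**Figure D4:**
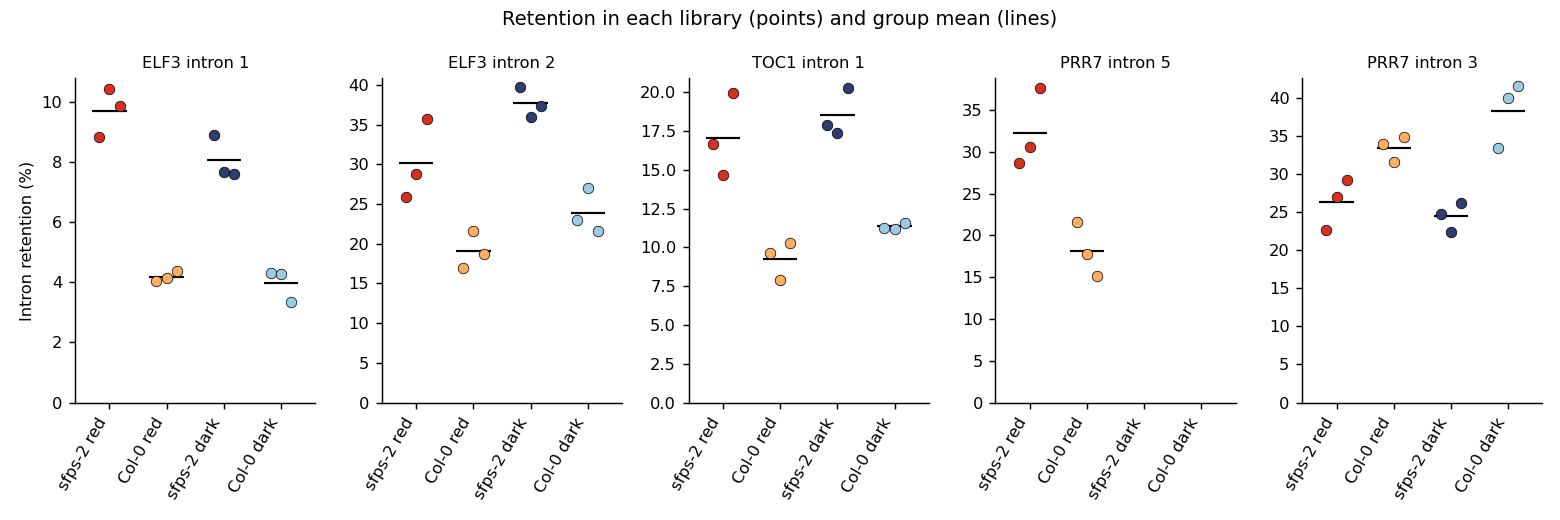
Retention in percent of the 5 introns in each library (points) with the group mean (lines), each panel with its own axis starting at 0. Except for PRR7 intron 3, where the sfps-2 libraries lie below the Col-0 libraries, all sfps-2 libraries lie above the Col-0 libraries of the same light condition; PRR7 intron 5 has values in red light only.

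More introns than those of clock genes were listed with higher retention in sfps-2. Of 743 listed introns in darkness 64.3% were higher in sfps-2, and of 788 in red light 70.7% were. Over 431 introns listed for all 12 libraries, outside SFPS, median retention ran from 13.7% to 14.2% in the sfps-2 red libraries and from 10.7% to 11.6% in the Col-0 red libraries. In darkness it ran from 15.6% to 16.6% in sfps-2 and from 12.1% to 13.5% in Col-0. The authors had listed these introns in both genotype comparisons or in both light comparisons, from these same reads. The medians therefore describe a selected set and not introns in general. By size of change, PRR7 intron 3 ranked 137, ELF3 intron 2 ranked 139, TOC1 intron 1 ranked 393 and ELF3 intron 1 ranked 631 of the 743 in darkness. Of the 788 in red light, PRR7 intron 5 ranked 128, ELF3 intron 2 ranked 206, TOC1 intron 1 ranked 341, PRR7 intron 3 ranked 383 and ELF3 intron 1 ranked 509. The sfps-2 red replicate 3 had the highest retention of its group in 4 of the 5 member introns, ELF3 intron 1 being the exception. Without it, the limma adjusted p of the 4 red light events that passed stayed under 0.05.

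The reads at each boundary separated the 2 ELF3 introns. Here the share of unspliced reads was taken at each boundary alone, over that boundary's reads plus the spliced reads. At the 3′ boundary of ELF3 intron 1 the share was 11.6%, 9.66% and 11.6% in dark-grown sfps-2 against 4.85%, 3.72% and 3.34% in Col-0. At its 5′ boundary the share was 5.99%, 5.58% and 3.25% in sfps-2 against 3.78%, 4.82% and 3.34% in Col-0, so the groups overlapped there and stood apart at the 3′ boundary. The same held in red light, with 11.3%, 14.0% and 14.0% in sfps-2 against 4.51%, 4.08% and 3.21% in Col-0 at the 3′ boundary, and with 6.25%, 6.55% and 5.27% in sfps-2 against 3.59%, 4.22% and 5.48% in Col-0 at the 5′ boundary. In both light conditions, then, the genotypes stood apart at the 3′ boundary of ELF3 intron 1 and overlapped at its 5′ boundary. The mean 5′ share was still higher in sfps-2, at 4.94% against 3.98% in Col-0 in darkness and 6.02% against 4.43% in red light. The mean 3′ share was 10.9% in sfps-2 against 3.97% in Col-0 in darkness and 13.1% against 3.93% in red light. Whether the boundaries differ in this was not tested.

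ELF3 intron 2 had the opposite balance, with more unspliced reads at its 5′ boundary in every library. In darkness the 5′ share was 51.3%, 45.0% and 48.3% in sfps-2 against 32.4%, 37.3% and 28.0% in Col-0. The 3′ share was 20.7%, 23.5% and 20.6% in sfps-2 against 10.7%, 12.6% and 14.0% in Col-0. Both boundaries stood apart between genotypes in darkness, and they did so in red light as well. TOC1 intron 1 had similar shares at its boundaries, and at both of them the sfps-2 libraries lay above the Col-0 libraries in darkness and in red light. In PRR7 intron 5 the share at the boundary listed first was 39.6%, 42.3% and 51.0% in sfps-2 against 29.5%, 23.3% and 19.9% in Col-0. At the other boundary it was 12.8%, 12.9% and 14.4% in sfps-2 against 11.7%, 11.4% and 9.87% in Col-0, so the groups stood apart at both, by less at the other one, where 25 to 34 reads lay in each library. The sources used here do not say which of these boundaries is the 5′ one for a gene on the minus strand.

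**Figure D5:**
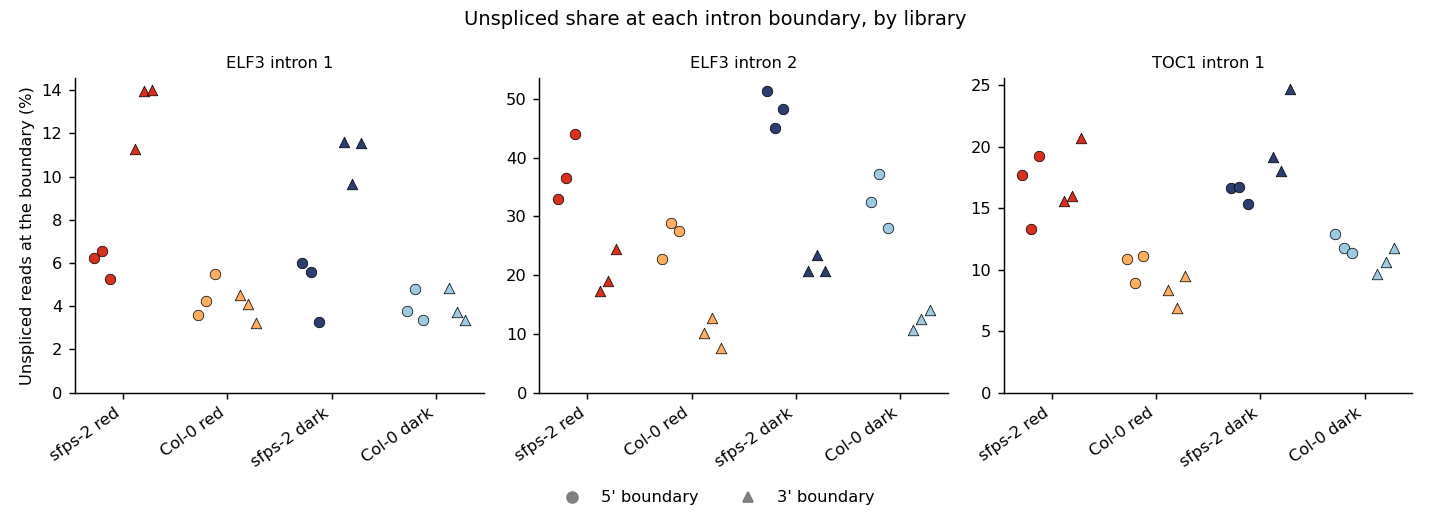
Share of unspliced reads in percent at the 5′ boundary (circles) and the 3′ boundary (triangles) in each library for the 3 plus-strand introns, each panel with its own axis starting at 0. In ELF3 intron 1 the 3′ shares of sfps-2 lie above those of Col-0 while the 5′ shares overlap, and in ELF3 intron 2 and TOC1 intron 1 both boundaries are higher in sfps-2 within each light condition.

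A dependence of the genotype difference on light could be tested for 4 of the 5 introns, those with reads given for all 12 libraries. Each was listed between genotypes in darkness and in red light, a choice that favours introns that differ alike in both, and PRR7 intron 5, listed in red light only, could not be tested. Within this limit, a limma fit with a genotype by light term over 582 bins gave 0 of these 4 and 0 of all 582 past an adjusted p of 0.05, with 27 of the 582 at an unadjusted p under 0.05 and 0 of the 4. The nearest was PRR7 intron 3, where the sfps-2 minus Col-0 difference in log2 odds was less negative in red light than in darkness by 0.44, with an interval of 2 SE from -0.11 to 0.98. For ELF3 intron 2 the interval was -0.67 to 0.51, for TOC1 intron 1 it was -0.34 to 0.70 and for ELF3 intron 1 it was -0.25 to 0.67.

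Of the morning clock genes, 2 of 14 had a listed event in sfps-2 against Col-0 in darkness (LNK4 and RVE8) and 4 of 14 in red light (CCA1, LNK2, LNK4 and RVE8). Among all genes tested for expression, 3.75% had one in darkness and 3.92% in red light. Of the 13 regulators of clock proteins, only SKIP, itself a splicing factor of the clock, had listed events, in both conditions. GRP7 was listed in both conditions among the 10 clock outputs, and none of the 8 relatives of the members and none of the 4 light regulators was listed in either. In red light against darkness, 3 of the 14 morning genes were listed in sfps-2 (CCA1, LHY and LNK2) and 5 in Col-0 (these 3, LNK1 and RVE8). The shares of all genes tested for expression were 1.92% in sfps-2 and 2.92% in Col-0.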

How the data were processed

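Total RNA of 12 libraries was sequenced and processed by the authors. FastQC, TopHat2 and Cufflinks and the TAIR10 build are named in the submitters' processing notes, and ASpli for splicing in the series' design text; versions are not given in the sources used here. FPKM values per group, with p-values and q-values, were deposited by the authors for 4 pairwise comparisons. The p-values of the deposited tables have a lowest value of 5e-05, so tied genes cannot be ranked. Splicing events were deposited as junction counts per library, with the authors' share of inclusion as a fraction and an FDR (p-values adjusted for multiple tests). Recomputed group shares of the member introns equalled the deposited ones.

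Log2 changes were computed from FPKM with no pseudocount, and their SE from the deposited test statistic, rescaled so that its normal deviate gives the deposited p. Junction counts were turned into log2 odds with 0.5 reads added to each side and fitted with limma 3.58.1 in R 4.3.3, over all listed events of a comparison. Python 3.11.15 was used for the rest. The limma fit and the test of the difference of light responses were also run on simulated data. The simulated differences were drawn with the same SE that the test used, so they cannot check the SE derived here. The simulated junction reads did not copy the authors' listing of events from the same reads. Depth behind expression values is unknown, since no counts per gene were used, and intervals cover the authors' error model only. Of the splice junctions, 570 pairs of bin and library occur in more than 1 table, and 3 of them, none in the 10 genes, differ in reads. RefSeq introns matched 97.4% to 98.4% of the listed intron bins. The authors' test score per gene (the deposited test statistic) served for these SE. Splice sites were scored by the log2 ratio of base frequencies over 9 bases at the 5′ end and 17 at the 3′ end.

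The members and gene lists were chosen with earlier results of these data known. Genes outside the 10 were named where their list changed or, for likeness, as the 3 nearest by log2 change among genes of at least 1 FPKM. Alternatives tried were q alone, a 2-fold limit, centring on the median, a minimum of 1 FPKM, pseudocounts of 1 and 0.1, other odds offsets, summed reads, a minimum of 10 junction reads, a replicate block and leaving out each library. The promoter window of 1 gene is not reported here.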

Additional observations from a re-analysis of the deposited data

How the results depend on the processing

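Counts of called members kept within 1.5 times under 58 of 63 alternative counts. Of 352 alternative values of single genes and introns, 350 kept their side of the threshold or, for retention in points, stayed within the SD. Of values that passed a threshold, 0 changed sign. Values that passed none could, such as the PRR5 difference of light responses, at -0.0028 from the light comparisons and 0.0016 from the genotype comparisons. Alternative log2 changes kept the authors' q, so only the fold limit could change a call. Between genotypes in darkness, q alone gave 3 called members in place of 0. A 2-fold limit gave 0 called members in red light in place of 1 between genotypes, since ELF4 stood at 1.996-fold, and 3 in place of 6 for light in sfps-2. Centring on the median of all genes took LUX in sfps-2 to a log2 change of -0.58, just under the 1.5-fold limit. Of the member events, 2 of 4 in darkness and 2 of 5 in red light between genotypes changed by 10 points or more; these were PRR7 intron 3 and ELF3 intron 2 in darkness, and PRR7 intron 5 and ELF3 intron 2 in red light. Leaving out 1 library at a time gave 4 passing events in darkness and 3 to 4 in red light; where a group then had 2 libraries, limma pooled the spread over events. The lowest count came without Col-0 red replicate 1, where ELF3 intron 2 had log2 odds of 0.76 and an adjusted p of 0.051. For light in Col-0 and for the genotype by light term the count was 0 under every library left out. Deviations of same-numbered libraries from their group means had correlations of -0.09 to 0.08 over the listed events. Such low correlations cannot settle whether same-numbered libraries were prepared together. With a replicate block, 4 events passed in darkness, 4 in red light, 0 for light in Col-0 and 0 for genotype by light. Expression values have no per-library check.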
